A study of Homo sapiens with 9 samples.

Results

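MDA-MB-231 cells that received MILIP siRNA2 were compared with the same cells that received MILIP siRNA1, across all genes with enough counts to be tested. MDA-MB-231 is a human triple-negative breast cancer cell line with a mesenchymal-like appearance. Cells of the 3 groups were transfected with a control siRNA or with either MILIP siRNA and harvested 48 hours later, and 3 RNA libraries per group were sequenced. The comparison uses the 6 libraries of the MILIP siRNAs out of 9 in all, and the control libraries give the level of each gene without a MILIP siRNA. Of 60612 genes in the deposited table, 15345 passed the filter on low counts, and the 45267 others were not tested. No genotype or other treatment separates the groups in the labels, and both MILIP groups are the same line treated with a different oligonucleotide against 1 transcript.

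MILIP is a long noncoding RNA, a transcript with no annotated coding part. A small interfering RNA (siRNA) is a short duplex whose guide strand is loaded into an Argonaute protein, and the loaded complex cuts a transcript that pairs with the guide along its length. The 5′ bases of a guide, its seed, can also pair with short matching words in the 3′ untranslated regions (3′ UTRs) of other transcripts and lower them, as a microRNA does. For that reason a target is commonly depleted with more than a single siRNA and the transcripts are compared between them. Here this comparison asked how far the transcripts of the cells differed between both siRNAs against MILIP.

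Total counts ran from 15713313 to 19303652 per library with siRNA1, from 17135714 to 19759371 with siRNA2 and from 15281220 to 17241852 in the controls. Levels are given as CPM, counts per 1000000 counted reads after scaling, and 3 counts, the most that a count of 0 allows, correspond to 0.152 to 0.196 CPM depending on the library, for counting error only. The quasi-likelihood F test of edgeR was applied with all 9 libraries fitted together, and a gene was called at an adjusted p below 0.05 (two-sided, Benjamini-Hochberg adjustment over all tested genes). Higher and lower stand for called genes, siRNA2 against siRNA1, so a positive log2 fold change is a higher level with siRNA2. Nothing in the labels ties the 3 libraries of a group to separate cultures, so the spread that the p-values rest on may be technical. Since a called difference can arise with either siRNA, the control level stands beside the genes given library by library. Comparisons with control share the control libraries.

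The targeted transcript was low with both siRNAs. MILIP (listed as MAFG-DT, ENSG00000265688; chromosome 17, 81927829 to 81930753, plus strand) had 1.20, 0.618 and 1.90 CPM with siRNA1, 0.534, 0.965 and 0.349 CPM with siRNA2 and 8.21, 8.32 and 8.70 CPM in the control libraries. The counts behind these values were 19, 11, 37 and 10, 19, 6 for siRNA1 and siRNA2. Over 3 libraries its mean ± SD was 1.24 ± 0.641 CPM with siRNA1, 0.616 ± 0.316 CPM with siRNA2 and 8.41 ± 0.254 CPM in the controls (n = 3), and means ± SD of other genes are given likewise. The groups overlapped: siRNA2 library 2 lay above siRNA1 library 2. MILIP was called lower with siRNA2 (log2 fold change -0.99, SE 0.379, adjusted p = 0.0264). That call was lost without siRNA1 library 3 (-0.51, adjusted p = 0.308), without siRNA2 library 1 (-0.89, adjusted p = 0.083) and without siRNA2 library 3 (-0.73, adjusted p = 0.121). MAFG, the gene of a small Maf protein that lies head to head with MILIP, stood at 214 ± 2.14 CPM with siRNA1, 185 ± 6.79 CPM with siRNA2 and 158 ± 7.38 CPM in the controls (log2 fold change -0.21, SE 0.0566, adjusted p = 0.00281). The transfection text in the labels names siRNAs against PLANE, the gene MELTF-AS1, where the title names MILIP. MELTF-AS1 had 2.60, 2.75 and 3.28 CPM with siRNA1, 1.76, 1.98 and 2.45 CPM with siRNA2 and 2.16, 1.72 and 3.29 CPM in the control libraries, and did not pass the test between the siRNAs (log2 fold change -0.49, SE 0.245, adjusted p = 0.0879).

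A majority of tested genes differed between the siRNAs. Of 15345 tested genes 9271 were called (60.4%), 4360 higher (28.4%) and 4911 lower (32.0%) with siRNA2. Most of these differences were small: the median fold change of called genes was 1.53. At least 2-fold differences were called in 1159 genes higher (7.55%) and 1126 lower (7.34%), at least 4-fold differences in 197 higher and 202 lower, and at least 8-fold differences in 48 higher and 54 lower. The libraries of both siRNA groups lay fully apart in 10049 genes (65.5%), and 298 called genes had overlapping libraries. The median log2 fold change of all tested genes was -0.03. A share of called members in a gene list is read against these percentages, and the direction and size say more than the call alone.

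**Figure D1:**
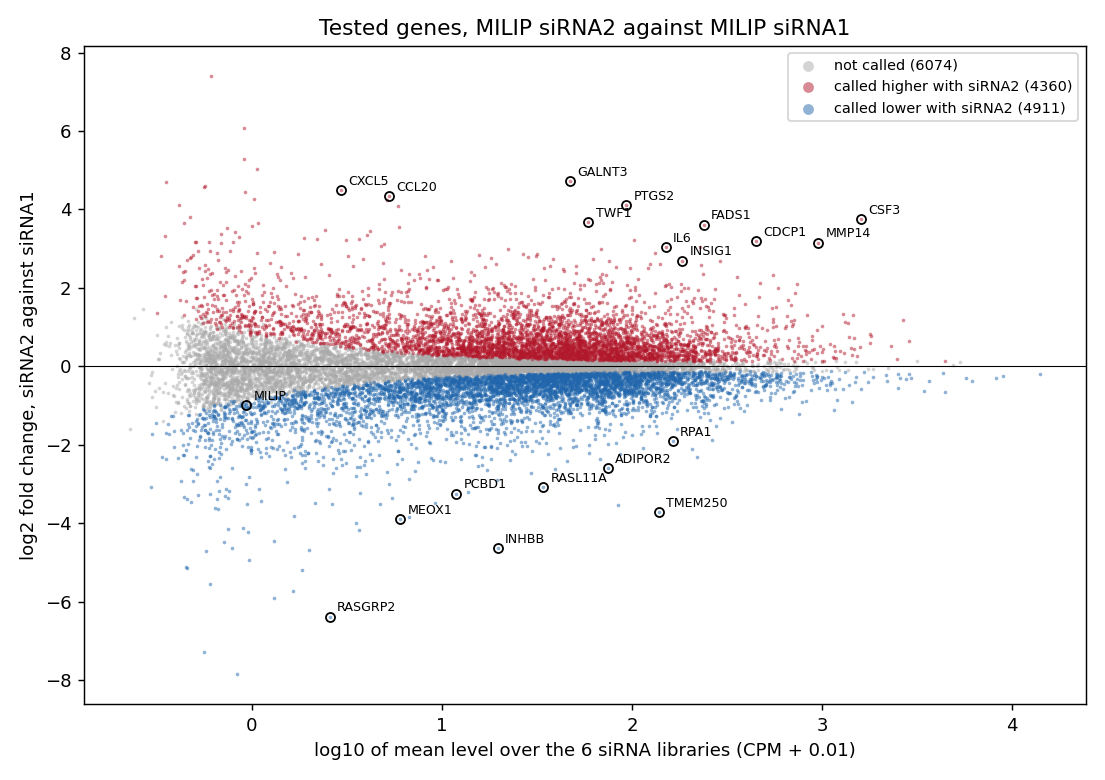
Log2 fold change of siRNA2 against siRNA1 (vertical axis) against the mean level over the 6 libraries (horizontal axis, log10 of CPM + 0.01), 1 point per tested gene, with called genes coloured. Called genes lie on both sides of 0 at all levels, 4360 above and 4911 below, and MILIP lies at the low end of the level axis.

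The genes that were higher and lower differed in the short words of their 3′ UTRs. All 7-base words found in the longest annotated 3′ UTR of at least 500 of 12550 tested genes were compared (11516 words, of which 10.8% also occur in MILIP). For each word the median log2 fold change of the genes that hold it was set against that of the genes that do not. The word AATTCCA had the most positive difference (medians 0.21 in 2110 genes with it and -0.06 without) and GACCCTA the most negative (-0.28 in 665 genes with it and -0.01 without). The next at the negative end was ACCCTAA, 1 base further along, with a difference of -0.16. The next at the positive end was ATTCCAA, also 1 base further along, with 0.25. MILIP holds both leading words in exon 2 of its 2 exons, at 81930360 to 81930366 and 81930484 to 81930490. The words were picked by these same fold changes, so the medians are a description with no test, and whether either word belongs to an siRNA was not tested, since the siRNA sequences are not used here.

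The sites that follow show both words in MILIP and in the 3′ UTRs of genes described further on. Each is 23 bases of GENCODE v29 transcript sequence on GRCh38, 5′ to 3′ on the transcript's strand, with the word in capitals. These carry AATTCCA:
MILIP (chr17:81930352-81930374, plus strand): gtcagggcAATTCCAaccaagaa
TWF1 (chr12:43793988-43794010, minus strand): atactctaAATTCCActacacta
FADS1 (chr11:61799792-61799814, minus strand): gcagcatgAATTCCAactcactt
CDCP1 (chr3:45085265-45085287, minus strand): acagttccAATTCCAaggagcct
MMP14 (chr14:22847580-22847602, plus strand): tatatatgAATTCCAttcaaatc
TXNDC5 (chr6:7882327-7882349, minus strand): gcatggaaAATTCCAcgaggctc
COX8A (chr11:63976416-63976438, plus strand): tgtcattcAATTCCAgtcacctc
NOP14 (chr4:2938767-2938789, minus strand): acatctgcAATTCCAaccctctg
MRPS14 (chr1:175013355-175013377, minus strand): tagagggcAATTCCAagagggca

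These carry GACCCTA:
MILIP (chr17:81930476-81930498, plus strand): aacatagaGACCCTAtcgctaca
TMEM250 (chr9:136115084-136115106, minus strand): ggacttgtGACCCTAccctgtca
PCBD1 (chr10:70883569-70883591, minus strand): gaaaccagGACCCTAaaccccac
ADIPOR2 (chr12:1786089-1786111, plus strand): gggactatGACCCTAaaccaggg
VTA1 (chr6:142218869-142218891, plus strand): gttagcaaGACCCTAaaaatgtc
RPA1 (chr17:1897480-1897502, plus strand): aagtcactGACCCTAactgcaga
RPL18 (chr19:48615434-48615456, minus strand): tccccacaGACCCTAcgtccgct

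Of 960 genes with a 3′ UTR that were at least 2-fold higher with siRNA2, 36.5% held AATTCCA, against 14.8% of 4279 genes that were not called and 13.1% of 863 genes at least 2-fold lower. Of the genes at least 2-fold lower, 15.4% held GACCCTA, against 4.23% of uncalled genes and 4.69% of genes at least 2-fold higher. The 1901 genes with AATTCCA alone had a median log2 fold change of 0.23, and of these 48.2% were higher and 21.7% lower. The 456 genes with GACCCTA alone had a median of -0.38, with 18.4% higher and 55.3% lower. The 209 genes with both words had a median of -0.07, close to the -0.05 of the 9984 genes with neither. Against the shared control libraries, genes with AATTCCA alone had a median of -0.22 with siRNA1 and -0.00 with siRNA2. Genes with GACCCTA alone had -0.01 with siRNA1 and -0.37 with siRNA2. Genes with both words had -0.26 with siRNA1 and -0.26 with siRNA2, and genes with neither had 0.04 and 0.02. The difference between genes with and without a word appeared in each of the 5 bins of 3′ UTR length: 0.38 to 0.13 for AATTCCA from the shortest to the longest bin, and -0.64 to -0.28 for GACCCTA. Genes that share 7, 8, 9 or 10 or more bases with MILIP around GACCCTA had medians of -0.32, -0.28, -0.13 and -0.22. Around AATTCCA the medians were 0.14, 0.27, 0.22 and 0.25. The median farthest from 0 was thus at 7 bases for GACCCTA, and the one nearest to 0 at 7 bases for AATTCCA. NOP14 shares 12 bases with MILIP around AATTCCA and was higher (0.66), while MRPS14 shares 13 and was lower (-1.61). No mature human microRNA among 2370 in RefSeq has a seed (bases 2 to 8) that pairs with either word. The words were held by a minority of called genes: 587 of the 960 genes at least 2-fold higher and 640 of the 863 at least 2-fold lower hold neither. Over all 12550 tested genes with a 3′ UTR, 79.6% hold neither, a larger share than in either of these groups. In the paragraphs below a word is noted for some genes only, and a gene without a remark can hold a word too. STC1 and TGFBR2, for instance, hold AATTCCA, and PECAM1, which was higher, holds GACCCTA.

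**Figure D2:**
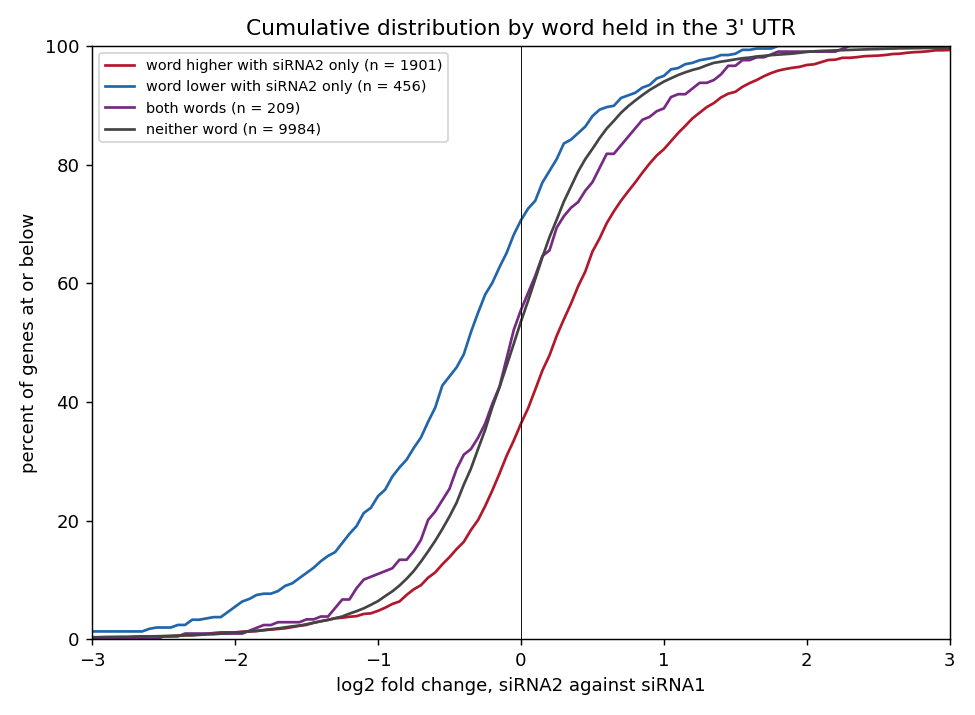
Cumulative share of genes (vertical axis, percent) at or below each log2 fold change of siRNA2 against siRNA1 (horizontal axis), for genes whose 3′ UTR holds the word with the most positive difference only (1901 genes), the word with the most negative difference only (456), both (209) or neither (9984). The first curve lies to the right of the curve of genes with neither word and the second to its left, and the words were picked by these same values.

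The largest differences towards siRNA2 were in secreted inflammatory mediators and a few genes that were low only in the siRNA1 libraries. GALNT3 (ENSG00000115339; chromosome 2, 165747588 to 165794659, minus strand), an enzyme that starts mucin-type O-glycosylation, had 3.55, 3.76 and 3.13 CPM with siRNA1, 92.96, 86.1 and 94.4 CPM with siRNA2 and 42.3, 42.1 and 41.95 CPM in the control libraries. It was 26.2-fold higher with siRNA2 (log2 fold change 4.71, SE 0.0973, adjusted p = 7.96e-22), and the control libraries lay between both groups. TWF1, an actin monomer-binding protein, had 8.74, 9.83 and 7.24 CPM with siRNA1, 106, 109.7 and 112 CPM with siRNA2 and 98.5, 79.5 and 87.6 CPM in the control libraries (log2 fold change 3.67, SE 0.0990, adjusted p = 6.49e-20). FADS1, a desaturase of polyunsaturated fatty acid synthesis, had 36.9, 36.2 and 34.9 CPM with siRNA1, 426, 444 and 451 CPM with siRNA2 and 325, 332 and 289.7 CPM in the control libraries (log2 fold change 3.61, SE 0.0671, adjusted p = 1.88e-22). In both genes siRNA1 libraries were the low group and control libraries lay much nearer to siRNA2. TWF1 and FADS1 hold AATTCCA, as printed above, and the longest 3′ UTR of GALNT3 does not. TWF1P1, a pseudogene copy of TWF1, shares sequence with it and its reads cannot be assigned with certainty (log2 fold change 4.10). The basement membrane collagen chain COL4A4 (3.35), the GTPase-activating protein ARHGAP9 (3.44), the membrane protein LRRC15 (4.24) and the protease PAPPA (3.56), which cleaves insulin-like growth factor binding proteins, were also among the 12 largest.

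Abundant surface and secreted proteins were also at the higher end. MMP14, a membrane-type matrix metalloprotease, had 199, 181 and 199 CPM with siRNA1, 1911, 1615 and 1612 CPM with siRNA2 and 835, 804 and 835 CPM in the control libraries (log2 fold change 3.15, SE 0.0669, adjusted p = 7.96e-22). CDCP1, a transmembrane substrate of Src family kinases, had 87.3, 89.7 and 90.1 CPM with siRNA1, 835, 803 and 803 CPM with siRNA2 and 506, 526 and 432 CPM in the control libraries (log2 fold change 3.19, SE 0.0674, adjusted p = 7.96e-22). In both, all siRNA1 libraries lay below the control libraries and all siRNA2 libraries above them, and both hold AATTCCA. STC1, a secreted glycoprotein, stood at 49.1 ± 2.49 CPM with siRNA1 and 406 ± 11.4 CPM with siRNA2 and 183 ± 13.8 CPM in the controls (log2 fold change 3.05, SE 0.0671, adjusted p = 1.23e-21).

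The largest differences away from siRNA2 included genes that were near absent from the control libraries and present with siRNA1. RASGRP2 (chromosome 11, 64726911 to 64745456, minus strand), a guanine exchange factor of Rap and Ras GTPases, had 5.45, 3.65 and 6.16 CPM with siRNA1, 0, 0.152 and 0 CPM with siRNA2 and 0, 0.132 and 0.294 CPM in the control libraries. Its siRNA1 libraries held 271 counts in all and its siRNA2 libraries 3, a ratio of 96.4 per count sequenced (95% exact binomial interval 32.6 to 470.1, counting error only; adjusted p = 1.67e-10). INHBB, a subunit of activin and inhibin, had 37.6, 35.7 and 40.3 CPM with siRNA1, 1.23, 1.93 and 1.34 CPM with siRNA2 and 2.22, 2.58 and 2.70 CPM in the control libraries (log2 fold change -4.64, SE 0.142, adjusted p = 8.00e-19). CDH3, which encodes P-cadherin, had 7.03, 6.29 and 7.54 CPM with siRNA1, 0.587, 0.254 and 0.291 CPM with siRNA2 and 0.309, 0.660 and 0.353 CPM in the control libraries (log2 fold change -4.18, SE 0.286, adjusted p = 4.07e-12). For RASGRP2 and CDH3 the control libraries overlapped the siRNA2 libraries, and for INHBB they lay just above them. The homeobox factor MEOX1 (-3.89), placental alkaline phosphatase ALPP (-3.85), the chemokine CX3CL1 (-3.51), the cytokine LTB (-3.47) and the coagulation factor subunit F13A1 (-3.35) were likewise higher with siRNA1 than in the controls, with log2 fold changes of siRNA1 against control from 3.17 for LTB to 5.88 for ALPP. ALPP and F13A1 hold AATTCCA and were lower with siRNA2.

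Other lower genes, RASL11A apart, were below the controls in the siRNA2 libraries. TMEM250, a transmembrane protein gene, had 263, 237 and 271 CPM with siRNA1, 20.6, 19.7 and 18.2 CPM with siRNA2 and 132, 152 and 157 CPM in the control libraries (log2 fold change -3.72, SE 0.0809, adjusted p = 1.05e-21). PCBD1, an enzyme that recycles the cofactor tetrahydrobiopterin, had 23.9, 19.9 and 20.9 CPM with siRNA1, 2.19, 1.93 and 2.68 CPM with siRNA2 and 21.9, 24.3 and 25.9 CPM in the control libraries (log2 fold change -3.25, SE 0.140, adjusted p = 5.23e-16). ADIPOR2, an adiponectin receptor, had 127, 129.5 and 129 CPM with siRNA1, 19.97, 21.8 and 21.8 CPM with siRNA2 and 118, 119 and 119.7 CPM in the control libraries (log2 fold change -2.60, SE 0.0679, adjusted p = 3.51e-20). In all 3 genes the siRNA2 libraries lay below the control libraries; the siRNA1 libraries of PCBD1 overlapped the controls and those of TMEM250 and ADIPOR2 lay above them. These 3, and VTA1 (-2.61), which activates the ATPase of membrane scission, hold GACCCTA. CTDSPL, a small phosphatase, lay on both sides of the control, at 156 ± 2.58 CPM with siRNA1 and 13.5 ± 0.395 CPM with siRNA2 and 58.5 ± 3.94 CPM in the controls (log2 fold change -3.53, SE 0.0759, adjusted p = 9.30e-22). ATPAF1, an assembly factor of ATP synthase (-2.72), and CHCHD3, a component of the mitochondrial cristae junction complex (-2.36), were lower as well, and CHCHD3 holds AATTCCA. RASL11A, a small GTPase-like protein, stood at 61.03 ± 9.57 CPM with siRNA1 and 7.24 ± 1.45 CPM with siRNA2 (-3.08). Its control libraries, at 5.90 ± 0.808 CPM, overlapped the siRNA2 libraries. Against control its log2 fold change was 3.36 with siRNA1 and 0.28 with siRNA2. RCSD1, which binds the actin capping protein, stood at 6.61 ± 1.42 CPM with siRNA1 and 0.405 ± 0.200 CPM with siRNA2 (-3.99). Its control level was 1.39 ± 0.336 CPM.

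**Figure D3:**
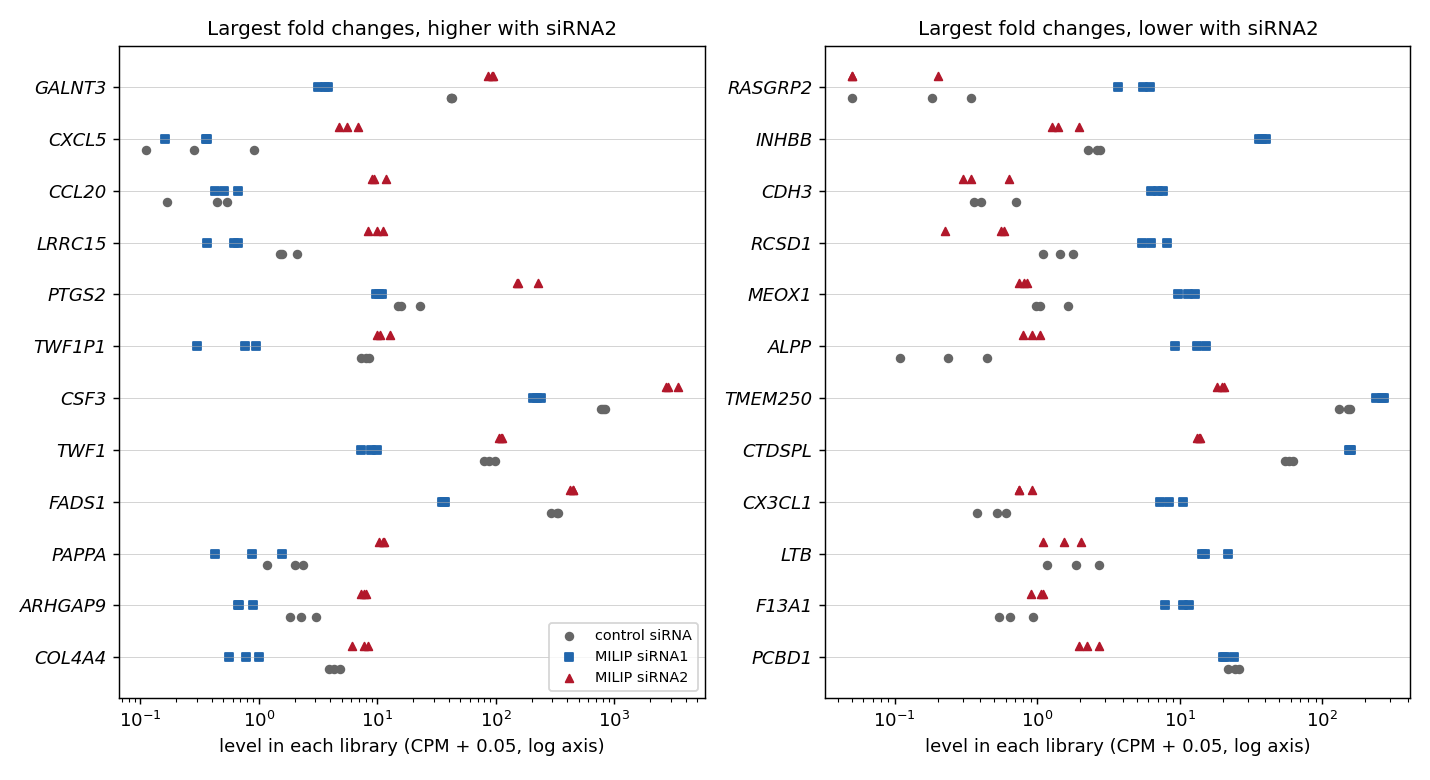
Level in each of the 9 libraries (horizontal axis, CPM + 0.05, log axis) of the 12 genes with the largest fold change in each direction; each point is 1 library. The genes were picked among those whose siRNA1 and siRNA2 points do not overlap. The control points lie near siRNA2 for TWF1, FADS1, RASGRP2 and CDH3 and near siRNA1 for PCBD1.

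A few called genes had no count at all in either siRNA1 or siRNA2 libraries: 1 gene that was higher and 2 that were lower. COL3A1, a fibrillar collagen chain, had 0 counts in each siRNA1 library and 24, 21 and 22 with siRNA2, at least 7.01-fold higher against a level of 3 counts per library. SLC6A19, a neutral amino acid transporter, had 0 counts with siRNA2 and 31, 29 and 27 with siRNA1, at least 10.3-fold lower. PADI2, a peptidylarginine deiminase, had 0 counts with siRNA2 and 15, 17 and 27 with siRNA1, at least 6.80-fold lower.

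Lists of genes of known function were counted in the same way, each read against 28.4% higher and 32.0% lower over all tested genes. They are described from the cell surface and secreted products inwards.

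**Figure D4:**
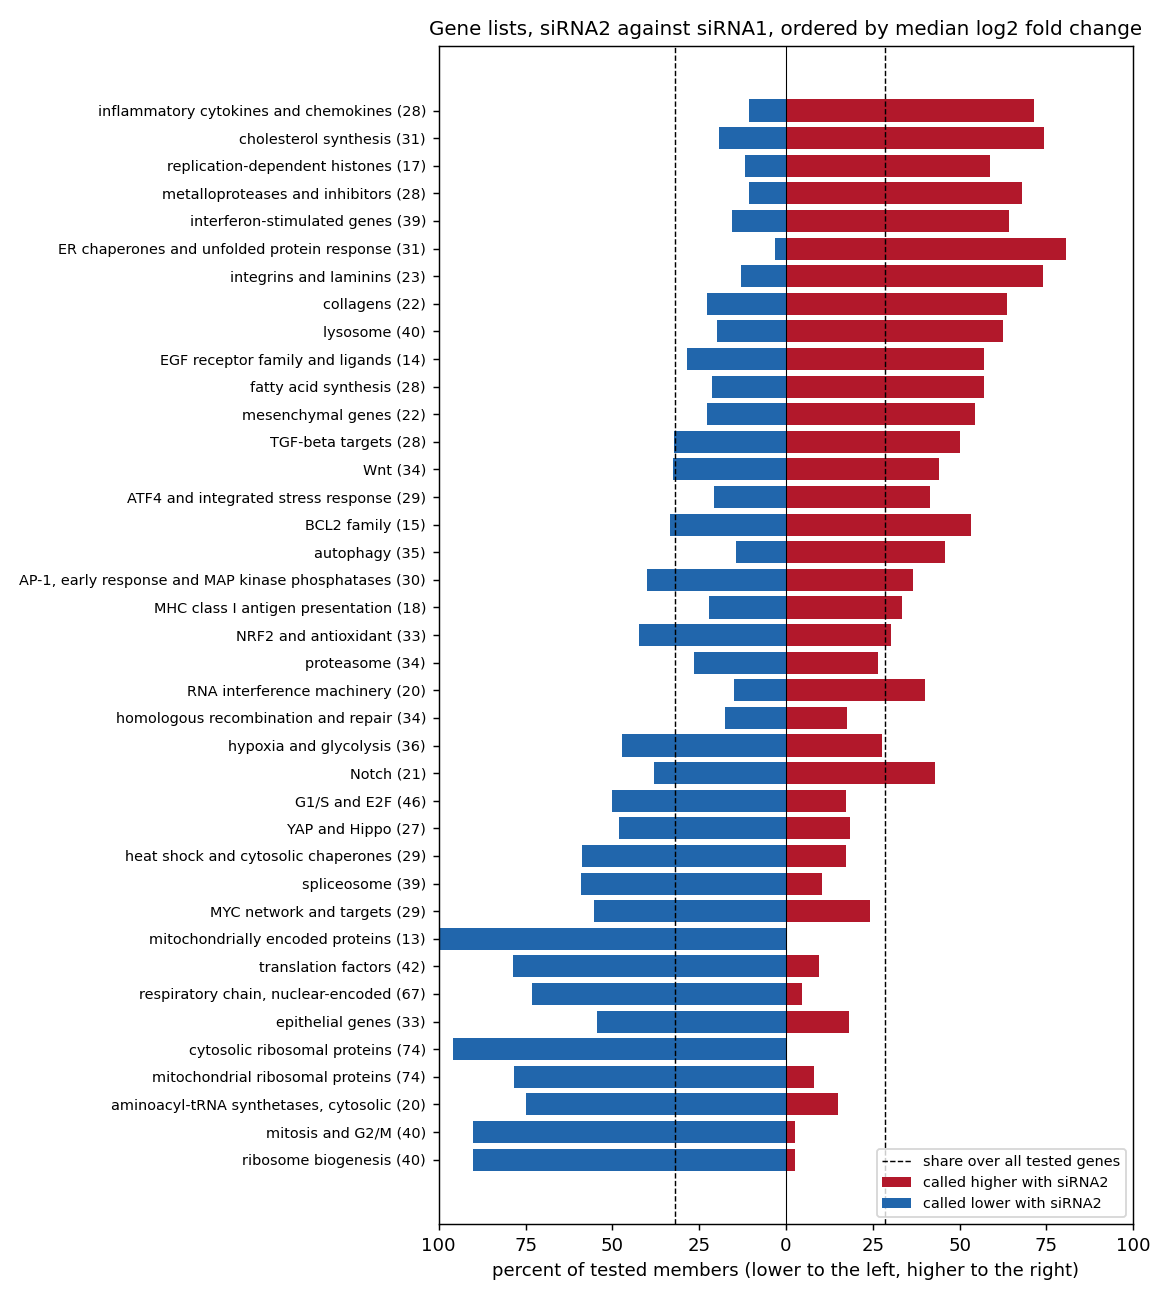
Share of the tested members of each gene list drawn (horizontal axis, percent; number of tested members in brackets) called higher (to the right) or lower (to the left) with siRNA2, ordered by median log2 fold change, with dashed lines at 28.4% and 32.0%, the shares over all tested genes. Cytokines and cholesterol synthesis stand at the top, and ribosome biogenesis and mitosis at the bottom.

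Inflammatory cytokines and chemokines are secreted proteins that recruit and activate leukocytes. Their list, which also holds the enzyme gene PTGS2, had the highest median of the lists by function, cell type markers aside. Of its tested members 20 of 28 were higher and 3 lower with siRNA2, with a median log2 fold change of 1.04. CSF3, which drives neutrophil production, had 240.4, 204 and 223 CPM with siRNA1, 3448, 2723 and 2819.6 CPM with siRNA2 and 776, 801 and 837 CPM in the control libraries (log2 fold change 3.75, SE 0.0792, adjusted p = 7.96e-22). IL6, a cytokine that signals through STAT3, had 32.4, 31.8 and 33.9 CPM with siRNA1, 305, 256 and 244 CPM with siRNA2 and 30.9, 30.2 and 32.6 CPM in the control libraries (log2 fold change 3.04, SE 0.0791, adjusted p = 3.51e-20). PTGS2, the inducible enzyme of prostaglandin synthesis, had 10.9, 10.3 and 9.75 CPM with siRNA1, 226, 153 and 151 CPM with siRNA2 and 23.03, 15.7 and 14.7 CPM in the control libraries (log2 fold change 4.10, SE 0.149, adjusted p = 2.05e-17). CSF3 lay below the controls with siRNA1 and above them with siRNA2, while for IL6 the siRNA1 and control libraries overlapped and the siRNA2 libraries stood alone. The neutrophil-attracting chemokines CXCL5 (0.246 ± 0.116 CPM with siRNA1 and 5.66 ± 1.04 CPM with siRNA2; 4.49) and CXCL3 (19.8 ± 0.700 CPM with siRNA1 and 185 ± 17.3 CPM with siRNA2; 3.23) and the chemokine CCL20 (0.486 ± 0.121 CPM with siRNA1 and 10.02 ± 1.60 CPM with siRNA2; 4.34) were higher too. CSF2, a growth factor of granulocytes and macrophages (-0.28, adjusted p = 0.00264), LIF (-0.32) and CX3CL1 (-3.51) were the 3 members that were lower. The 25 members with a 3′ UTR that holds neither word had a median of 1.04, with 18 higher and 3 lower. Of 6 leukocyte markers, CD3E had 0 counts in all 9 libraries and PTPRC at most 1. CD14 (2.63) and CSF1R (1.07) were higher with siRNA2, and the summed marker level was 5.89 to 7.25 CPM with siRNA1, 18.6 to 19.5 CPM with siRNA2 and 5.69 to 6.50 CPM in the controls. Of 5 endothelial markers both that were tested, PECAM1 and KDR, were higher (1.23 and 2.44), and the other 3 had at most 12 counts in a library (VWF). The summed endothelial level was 5.89 to 7.19 CPM with siRNA1, 18.4 to 20.1 CPM with siRNA2 and 8.70 to 11.1 CPM in the controls. The part of these markers in the cytokine counts was not tested.

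Interferon-stimulated genes, the antiviral effectors, leaned the same way: 25 of 39 tested members were higher and 6 lower with siRNA2, with a median log2 fold change of 0.55. OAS2, a sensor that activates RNase L, stood at 7.34 ± 0.322 CPM with siRNA1 and 20.8 ± 0.161 CPM with siRNA2 and 20.9 ± 2.69 CPM in the controls (1.50). SAMD9L (13.9 ± 1.87 CPM with siRNA1 and 36.05 ± 2.45 CPM with siRNA2; 1.38) and SAMD9 (19.8 ± 3.19 CPM with siRNA1 and 44.998 ± 2.54 CPM with siRNA2; 1.19) were higher with siRNA2. EPSTI1 (log2 fold change -1.33, SE 0.157, adjusted p = 7.66e-08) and the ISG15 ligase HERC5 (-0.65) were lower. EPSTI1 stood at 9.36 ± 0.484 CPM with siRNA1, 3.71 ± 0.832 CPM with siRNA2 and 3.65 ± 0.327 CPM in the controls. It holds GACCCTA, and its siRNA2 libraries overlapped the controls. Of the antigen presentation genes of the major histocompatibility complex class I pathway, 6 of 18 were higher and 4 lower (median 0.04; 4 higher and 5 lower with limma on FPKM), with B2M at 0.63 and the peptide transporter subunit TAP2 at -1.05. The lower count of this list was 2 with median-of-ratios scaling and without control library 1, siRNA1 library 1 or 3, or siRNA2 library 1 or 2. Reads of HLA genes can be split between near-identical copies and are uncertain.

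Matrix-degrading enzymes and their inhibitors were another list of secreted and surface proteins with a high median: 19 of 28 tested members were higher and 3 lower with siRNA2, with a median log2 fold change of 0.85. MMP14 was described above. ADAM19, a membrane-anchored sheddase, had 39.3, 42.3 and 36.8 CPM with siRNA1, 242, 256 and 228 CPM with siRNA2 and 60.3, 60.7 and 51.8 CPM in the control libraries (log2 fold change 2.62, SE 0.0750, adjusted p = 2.50e-19). ADAMTS9, a secreted proteoglycan-cleaving protease, had 5.64, 7.30 and 6.42 CPM with siRNA1, 54.2, 46.5 and 39.9 CPM with siRNA2 and 16.5, 13.1 and 14.9 CPM in the control libraries (log2 fold change 2.86, SE 0.124, adjusted p = 6.81e-16). For both, siRNA2 was the highest group and siRNA1 the lowest. MMP15 (-0.50) and the inhibitor TIMP4 (-1.04) were lower. Of the 27 members with a 3′ UTR 7 hold AATTCCA, and the 20 members with a 3′ UTR that holds neither word had a median of 0.85, with 14 higher and 3 lower.

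Adhesion receptors and their ligands followed. Among integrins and laminins, the receptors and ligands that join cells to the basement membrane, 17 of 23 tested members were higher and 3 lower with siRNA2, with a median log2 fold change of 0.47. ITGA2, a collagen-binding integrin chain, had 68.96, 87.2 and 67.5 CPM with siRNA1, 302, 296 and 301 CPM with siRNA2 and 155, 140.3 and 105 CPM in the control libraries (log2 fold change 2.01, SE 0.101, adjusted p = 1.11e-14). ITGA1 stood at 26.9 ± 2.83 CPM with siRNA1 and 67.01 ± 2.59 CPM with siRNA2 (1.32) and ITGA10 at 4.61 ± 0.576 CPM with siRNA1 and 14.6 ± 2.28 CPM with siRNA2 (1.66). ITGA10 holds AATTCCA and ITGA1 holds GACCCTA, and both were higher. ITGB4, the hemidesmosome integrin chain, was lower (1108 ± 62.5 CPM with siRNA1 and 863 ± 18.97 CPM with siRNA2; log2 fold change -0.36, SE 0.0554, adjusted p = 4.01e-06), and so was the laminin chain LAMA5 (-0.25). Among collagens 14 of 22 tested members were higher and 5 lower with siRNA2, with a median log2 fold change of 0.47. COL5A1, a fibril-nucleating chain, had 144, 153 and 144 CPM with siRNA1, 390.2, 400.3 and 375 CPM with siRNA2 and 77.7, 82.7 and 69.6 CPM in the control libraries (log2 fold change 1.40, SE 0.0622, adjusted p = 9.25e-16), above the controls with both siRNAs. COL15A1 (-1.55) and COL9A2 (-0.76) were lower. Of 4 tested fibroblast markers 3 were higher, COL1A1, COL1A2 and COL3A1, which are collagen genes themselves. The receptor gene PDGFRB did not pass the test, with 126, 125 and 150 counts with siRNA1, 124, 127 and 128 with siRNA2 and 13, 25 and 21 in the controls. The summed level of the markers was 49.6 to 58.0 CPM with siRNA1, 70.0 to 72.9 CPM with siRNA2 and 8.08 to 11.2 CPM in the controls. COL1A1 made most of it, at 45.1 ± 3.99 CPM with siRNA1 and 61.3 ± 2.22 CPM with siRNA2 and 8.25 ± 1.24 CPM in the controls. The fibroblast marker LUM had at most 1 count in a library and DCN at most 6, and the part of other cells in these counts was not tested.

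Mesenchymal genes leaned higher and epithelial genes lower. Of the mesenchymal list 12 of 22 tested members were higher and 5 lower with siRNA2, with a median log2 fold change of 0.36. ZEB2, a repressor of epithelial genes, had 3.86, 4.997 and 3.08 CPM with siRNA1, 20.9, 17.4 and 18.3 CPM with siRNA2 and 15.1, 13.7 and 14.3 CPM in the control libraries (log2 fold change 2.25, SE 0.140, adjusted p = 6.45e-13), and holds both words. TNC, a matrix glycoprotein of wound and tumour stroma, stood at 75.2 ± 2.94 CPM with siRNA1 and 286 ± 2.39 CPM with siRNA2 and 260.4 ± 20.6 CPM in the controls (1.93), and the collagen cross-linking enzyme LOXL2 at 309.9 ± 16.1 CPM with siRNA1 and 1129.7 ± 19.2 CPM with siRNA2 and 788 ± 23.9 CPM in the controls (1.87). The siRNA1 mean was the lowest of the 3 groups for ZEB2, TNC and LOXL2. CAV2 (-0.35), FOXC1 (-0.74) and LOXL1 (-0.86) were lower. Of the epithelial list 6 of 33 tested members were higher and 18 lower with siRNA2, with a median log2 fold change of -0.41. The tight junction protein gene CGN had 26.5, 23.8 and 24.02 CPM with siRNA1, 6.19, 4.01 and 5.36 CPM with siRNA2 and 8.09, 7.59 and 8.34 CPM in the control libraries (log2 fold change -2.26, SE 0.126, adjusted p = 9.43e-14). CGN was highest with siRNA1 and holds AATTCCA. The simple-epithelium keratins KRT8 (1066 ± 92.9 CPM with siRNA1 and 582 ± 5.01 CPM with siRNA2; -0.87) and KRT18 (826 ± 38.9 CPM with siRNA1 and 390.1 ± 7.95 CPM with siRNA2; -1.08) were lower with siRNA2, and the desmosomal cadherin DSC2 (1.49) and the protease inhibitor SPINT2 (0.99) higher. Luminal epithelial markers summed to 1797 to 2047 CPM with siRNA1, 960.6 to 999.0 CPM with siRNA2 and 910.8 to 1030.5 CPM in the controls, nearly all of it KRT8 and KRT18. Of the 6 tested luminal markers 4 were lower and 1 higher with siRNA2 (median -0.83). The 1 that was higher was the transcription factor gene GATA3 (0.79), which the sum does not show. The luminal receptor genes ESR1 and PGR had at most 17 and 1 counts in a library. Markers of a mesenchymal-like triple-negative line (VIM, CD44, ZEB1, AXL, CAV1 and EGFR) summed to 5647 to 5925 CPM with siRNA1 and 5738 to 5976 CPM with siRNA2. The sum was 7318 to 7719 CPM in the controls. Of the 6 markers 5 were higher with siRNA2 and 1 lower, VIM, at 4619 ± 219 CPM with siRNA1 and 4073 ± 78.7 CPM with siRNA2 (median of the list 0.49).

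Transforming growth factor beta genes were mixed in direction with large members on each side: 14 of 28 tested members were higher and 9 lower with siRNA2, with a median log2 fold change of 0.29. The receptor genes TGFBR1 (47.002 ± 0.870 CPM with siRNA1 and 137 ± 4.94 CPM with siRNA2; 1.54) and TGFBR2 (196 ± 6.49 CPM with siRNA1 and 588 ± 1.09 CPM with siRNA2; 1.59) were higher with siRNA2. The ligand TGFB2 had 73.6, 85.01 and 72.7 CPM with siRNA1, 13.9, 12.997 and 16.4 CPM with siRNA2 and 20.1, 23.2 and 19.7 CPM in the control libraries (log2 fold change -2.42, SE 0.0961, adjusted p = 1.10e-16), and the pseudoreceptor BAMBI (-1.49) and the scaffold NEDD9 (-2.58) were lower as well. TGFB2, BAMBI and NEDD9 were at their highest level with siRNA1.

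Among growth factor receptors, AXL was far below control with both siRNAs and 2.65-fold higher with siRNA2 than with siRNA1. AXL, a receptor tyrosine kinase, had 105, 98.8 and 106 CPM with siRNA1, 285, 271 and 263 CPM with siRNA2 and 998, 1041 and 973 CPM in the control libraries (log2 fold change 1.40, SE 0.0568, adjusted p = 1.56e-16). It holds AATTCCA. Of 14 genes of the epidermal growth factor receptor family and its ligands 8 were higher and 4 lower (median 0.37). HBEGF, a ligand shed from the surface, had 67.6, 64.1 and 66.6 CPM with siRNA1, 430.4, 383 and 374 CPM with siRNA2 and 279.6, 270.2 and 288 CPM in the control libraries (log2 fold change 2.58, SE 0.0643, adjusted p = 1.58e-20), and the feedback inhibitor ERRFI1 (1.48) and the ligand EREG (1.05) were higher. The ligands NRG1 (176 ± 5.02 CPM with siRNA1 and 72.9 ± 1.08 CPM with siRNA2; -1.27) and TGFA (-0.66) were lower. HBEGF holds AATTCCA and TGFA holds GACCCTA.

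Among YAP and Hippo pathway genes 5 of 27 tested members were higher and 13 lower with siRNA2, with a median log2 fold change of -0.14. The target genes ANKRD1 (537 ± 22.2 CPM with siRNA1 and 243 ± 2.64 CPM with siRNA2; -1.14) and AMOTL2 (1055 ± 3.14 CPM with siRNA1 and 455 ± 13.2 CPM with siRNA2; -1.21) were lower with siRNA2, where they lay near the control means of 268 ± 14.2 and 419 ± 23.9 CPM, while the target CCN1 was higher (0.36). Notch genes split into 9 higher and 8 lower of 21, with the receptor NOTCH1 (1.03), the modifying enzyme LFNG (1.74) and the DNA-binding factor RBPJ (0.87) higher, and the target HES1 (-1.01) and ligand JAG2 (-0.67) lower. Wnt genes split into 15 higher and 11 lower of 34. The receptor FZD1 (21.4 ± 1.81 CPM with siRNA1 and 90.3 ± 0.806 CPM with siRNA2; 2.08) and the beta-catenin destruction scaffold APC (1.30) were higher, and the ligand WNT9A (68.01 ± 3.88 CPM with siRNA1 and 16.1 ± 1.65 CPM with siRNA2; -2.07) and CTNNB1, which encodes beta-catenin (616 ± 10.2 CPM with siRNA1 and 339 ± 5.38 CPM with siRNA2; -0.86), were lower. Early response genes and MAP kinase phosphatases split into 11 higher and 12 lower of 30, with the feedback inhibitors SPRY1 (-2.08) and SPRY4 (-1.52) lower.

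Cholesterol synthesis was the metabolic list with the largest difference: 23 of 31 tested members were higher and 6 lower with siRNA2, with a median log2 fold change of 0.91. INSIG1, which retains the sterol sensor in the endoplasmic reticulum (ER), had 50.3, 54.8 and 42.9 CPM with siRNA1, 334, 311 and 308 CPM with siRNA2 and 54.5, 55.3 and 58.9 CPM in the control libraries (log2 fold change 2.69, SE 0.0749, adjusted p = 1.38e-19). HMGCS1, the enzyme before HMG-CoA reductase, had 76.2, 83.3 and 71.6 CPM with siRNA1, 407, 385 and 394 CPM with siRNA2 and 70.9, 61.5 and 63.2 CPM in the control libraries (log2 fold change 2.36, SE 0.0673, adjusted p = 2.26e-19). In both genes the siRNA2 libraries stood apart from all others. Against control the log2 fold change of INSIG1 was -0.19 with siRNA1 and 2.50 with siRNA2, and that of HMGCS1 0.24 and 2.60. SREBF1, a transcription factor of lipid synthesis, was lower (log2 fold change -0.74, SE 0.0807, adjusted p = 1.98e-08). It stood at 96.7 ± 12.998 CPM with siRNA1, 58.1 ± 3.87 CPM with siRNA2 and 62.8 ± 1.32 CPM in the controls. Against control its log2 fold change was 0.62 with siRNA1 and -0.11 with siRNA2. PMVK, a mevalonate pathway kinase (-0.47), and MYLIP, which targets the low-density lipoprotein receptor for degradation (-0.999), were lower too. The 27 members with a 3′ UTR that holds neither word had a median of 0.99, with 21 higher and 4 lower. In the fatty acid list 16 of 28 tested members were higher and 6 lower with siRNA2, with a median log2 fold change of 0.37. Beside FADS1, the elongase ELOVL6 (44.9 ± 5.55 CPM with siRNA1 and 105 ± 8.06 CPM with siRNA2; 1.23) and the long-chain acyl-CoA synthetase ACSL4 (64.2 ± 8.97 CPM with siRNA1 and 156 ± 5.71 CPM with siRNA2; 1.28) were higher, and the lipid droplet protein PLIN2 (143 ± 1.66 CPM with siRNA1 and 80.1 ± 5.32 CPM with siRNA2; -0.83) was lower. FADS1, ELOVL6 and ACSL4 hold AATTCCA.

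Genes of the secretory route and of the lysosome were higher as well. Of ER chaperones and unfolded protein response genes 25 of 31 tested members were higher and 1 lower with siRNA2, with a median log2 fold change of 0.49. TXNDC5, a protein disulfide isomerase that holds AATTCCA, had 4.31, 3.48 and 3.70 CPM with siRNA1, 28.6, 28.4 and 25.4 CPM with siRNA2 and 38.2, 43.98 and 36.4 CPM in the control libraries (log2 fold change 2.85, SE 0.120, adjusted p = 3.51e-16). SEC61A1, the channel subunit of protein import into the ER, had 268, 264 and 273 CPM with siRNA1, 666, 643 and 642 CPM with siRNA2 and 527, 534 and 523 CPM in the control libraries (log2 fold change 1.28, SE 0.0510, adjusted p = 1.23e-16). DERL2, a factor of ER-associated degradation, stood at 21.2 ± 0.469 CPM with siRNA1 and 49.6 ± 5.60 CPM with siRNA2 (1.22). The 1 member that was lower was EIF2AK3, which encodes the stress sensor PERK (14.2 ± 2.28 CPM with siRNA1 and 7.14 ± 0.668 CPM with siRNA2; log2 fold change -0.996, SE 0.142, adjusted p = 1.38e-06), and 2 were lower without control library 3. The 25 members with a 3′ UTR that holds neither word had a median of 0.47, with 21 higher and 1 lower. Of lysosome genes 25 of 40 tested members were higher and 8 lower with siRNA2, with a median log2 fold change of 0.43, with the proteases CTSS (24.8 ± 1.27 CPM with siRNA1 and 74.7 ± 5.26 CPM with siRNA2; 1.59) higher and CTSH (-0.72) lower. Of autophagy genes 16 of 35 were higher and 5 lower (median 0.15), with WIPI1, which binds phosphoinositides on forming autophagosomes, at 21.6 ± 1.74 CPM with siRNA1 and 84.5 ± 8.61 CPM with siRNA2 (1.97), and UVRAG (-1.48) and MAP1LC3B (-0.65) lower. UVRAG holds GACCCTA and MAP1LC3B both words. The lower autophagy count was 3 with median-of-ratios scaling, without control library 1 or 3, siRNA1 library 3 or siRNA2 library 3, and 2 without siRNA1 library 1 or siRNA2 library 2.

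**Figure D5:**
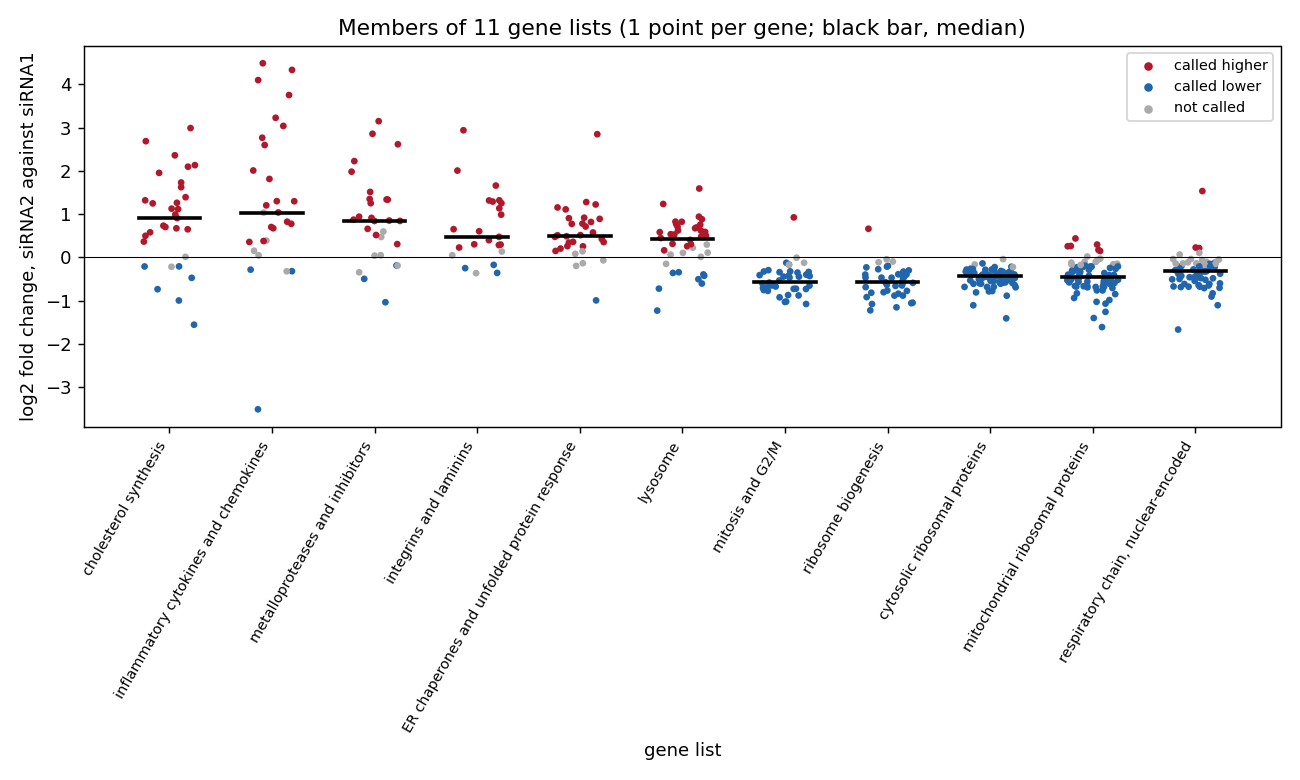
Log2 fold change of siRNA2 against siRNA1 (vertical axis) of each tested member of 11 gene lists (1 point per gene, coloured by call, spread sideways for legibility), with the median as a black bar. Members of the cholesterol, cytokine, metalloprotease, integrin, ER and lysosome lists spread upwards, and most members of the mitosis, ribosome and mitochondrial lists lie in a narrow band below 0, with single points such as TOP2A, NOP14 and COX8A above it.

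Genes of cell division were lower with siRNA2. In the mitosis and G2/M list 1 of 40 tested members were higher and 36 lower with siRNA2, with a median log2 fold change of -0.56. UBE2C, the ubiquitin-conjugating enzyme of the anaphase-promoting complex, had 128, 123 and 132 CPM with siRNA1, 58.4, 61.99 and 61.1 CPM with siRNA2 and 104, 105 and 117 CPM in the control libraries (log2 fold change -1.08, SE 0.0652, adjusted p = 3.88e-13). BIRC5, which encodes survivin, a subunit of the chromosomal passenger complex, had 175, 164 and 175 CPM with siRNA1, 81.6, 86.7 and 83.2 CPM with siRNA2 and 122, 120.0 and 135 CPM in the control libraries (log2 fold change -1.03, SE 0.0628, adjusted p = 4.45e-13). MAD2L1, a spindle checkpoint protein, had 75.3, 88.8 and 81.04 CPM with siRNA1, 36.1, 42.7 and 41.8 CPM with siRNA2 and 99.1, 91.7 and 103 CPM in the control libraries (log2 fold change -1.02, SE 0.0786, adjusted p = 3.53e-11). In these 3 genes siRNA2 was the lowest group, below the controls. TOP2A, a DNA topoisomerase, was the 1 member that was higher, with 158, 190.2 and 172 CPM with siRNA1, 292, 335 and 359.6 CPM with siRNA2 and 427, 407 and 375 CPM in the control libraries (log2 fold change 0.92, SE 0.0740, adjusted p = 7.66e-11). TOP2A holds AATTCCA, and so does MAD2L1, which was lower, while BIRC5 holds GACCCTA. The 35 members with a 3′ UTR that holds neither word had a median of -0.54, with 0 higher and 32 lower. In the G1/S and E2F list 8 of 46 tested members were higher and 23 lower with siRNA2, with a median log2 fold change of -0.14. The transcription factors E2F1 (97.5 ± 6.11 CPM with siRNA1 and 56.2 ± 3.23 CPM with siRNA2; -0.80) and E2F2 (10.4 ± 0.123 CPM with siRNA1 and 4.50 ± 1.08 CPM with siRNA2; -1.22) and the DNA polymerase alpha subunit POLA1 (35.1 ± 1.76 CPM with siRNA1 and 19.5 ± 0.500 CPM with siRNA2; -0.84) were lower, and the cyclin-dependent kinase CDK6 (0.83) and cyclin E1, CCNE1 (0.57), higher. CDK6 holds AATTCCA.

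Of genes of DNA repair by homologous recombination 6 of 34 were higher and 6 lower, against 28.4% and 32.0% of all tested genes. RPA1, the large subunit of the single-stranded DNA-binding protein RPA, differed most, with 253, 259.9 and 266 CPM with siRNA1, 66.3, 71.9 and 68.4 CPM with siRNA2 and 289.9, 281 and 296 CPM in the control libraries (log2 fold change -1.91, SE 0.0585, adjusted p = 8.08e-19). It holds GACCCTA, and its siRNA1 libraries lay near the controls. The kinase genes ATM (37.7 ± 6.66 CPM with siRNA1 and 61.02 ± 5.02 CPM with siRNA2; 0.69) and CHEK1 (30.3 ± 3.56 CPM with siRNA1 and 45.2 ± 0.890 CPM with siRNA2; 0.58) were higher, and XRCC2, a strand exchange factor (10.03 ± 1.48 CPM with siRNA1 and 7.10 ± 0.668 CPM with siRNA2; -0.50), lower. CHEK1 holds GACCCTA and was higher.

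Ribosome biogenesis had the lowest median of the lists by function, cell type markers aside: 1 of 40 tested members were higher and 36 lower with siRNA2, with a median log2 fold change of -0.57. DKC1, the pseudouridine synthase dyskerin, had 128, 134 and 129 CPM with siRNA1, 57.9, 58.7 and 50.4 CPM with siRNA2 and 163, 170.4 and 165 CPM in the control libraries (log2 fold change -1.23, SE 0.0658, adjusted p = 4.12e-14). NHP2, its partner in the same particle, had 137, 122 and 134 CPM with siRNA1, 59.9, 60.9 and 55.4 CPM with siRNA2 and 100.4, 106 and 112 CPM in the control libraries (log2 fold change -1.16, SE 0.0680, adjusted p = 2.30e-13). WDR12, a factor of large subunit maturation, stood at 66.7 ± 2.57 CPM with siRNA1 and 31.5 ± 0.470 CPM with siRNA2 (-1.08). NOP14, a factor of small subunit maturation, was the 1 member that was higher, with 65.5, 65.02 and 58.9 CPM with siRNA1, 102, 99.7 and 97.3 CPM with siRNA2 and 137, 149 and 149 CPM in the control libraries (log2 fold change 0.66, SE 0.0654, adjusted p = 3.40e-09), and with siRNA2 it still lay below the controls. The 34 members with a 3′ UTR that holds neither word had a median of -0.57, with 0 higher and 32 lower.

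Genes of cytosolic ribosomal proteins were lower almost throughout. Of 74 tested members 71 were lower, 0 were higher and 3, RPL23 and RPL39 among them, did not pass the test. The median log2 fold change was -0.44, and the members ran from -1.41 to -0.04. RPL18 had 500.1, 453 and 505 CPM with siRNA1, 192, 183 and 174 CPM with siRNA2 and 439, 425 and 513 CPM in the control libraries (log2 fold change -1.41, SE 0.0676, adjusted p = 4.46e-15) and holds GACCCTA. RPL10 had 482, 431 and 470.5 CPM with siRNA1, 262, 244 and 242 CPM with siRNA2 and 421, 421 and 478 CPM in the control libraries (log2 fold change -0.89, SE 0.0617, adjusted p = 5.47e-12). Their siRNA2 libraries lay below both other groups. Processed pseudogenes of ribosomal proteins share sequence with these genes, so the split of reads among copies is uncertain. Of translation factors 4 of 42 tested members were higher and 33 lower with siRNA2, with a median log2 fold change of -0.31. The initiation factor 3 subunits EIF3M (198 ± 2.63 CPM with siRNA1 and 68.5 ± 2.61 CPM with siRNA2; -1.53) and EIF3I (289.8 ± 18.9 CPM with siRNA1 and 142 ± 4.08 CPM with siRNA2; -1.03) were lower. EIF4H, which stimulates the helicase EIF4A, was higher, with 196, 203 and 196 CPM with siRNA1, 491, 486 and 485 CPM with siRNA2 and 516, 499 and 526 CPM in the control libraries (log2 fold change 1.30, SE 0.0521, adjusted p = 1.40e-16), and EIF5 was also higher (0.61). Both hold AATTCCA and were below control with siRNA1. Of cytosolic aminoacyl-tRNA synthetases, which load amino acids on transfer RNAs, 15 of 20 were lower and 3 higher (median -0.46; 1 higher when any siRNA2 library was left out). FARSB, a subunit of the phenylalanine enzyme, stood at 81.2 ± 4.24 CPM with siRNA1 and 38.2 ± 1.48 CPM with siRNA2 (-1.09), and WARS1, the tryptophan enzyme, at 177 ± 2.998 CPM with siRNA1 and 86.4 ± 3.97 CPM with siRNA2 (-1.03).

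Mitochondrial lists were lower too. Of nuclear-encoded respiratory chain genes 3 of 67 tested members were higher and 49 lower with siRNA2, with a median log2 fold change of -0.33. COX6B1, a subunit of cytochrome c oxidase, had 145, 127 and 148 CPM with siRNA1, 43.3, 45.2 and 43.3 CPM with siRNA2 and 116, 117 and 131 CPM in the control libraries (log2 fold change -1.67, SE 0.0721, adjusted p = 5.76e-16). COX8A, another subunit of the same complex, was higher, with 132, 114 and 133 CPM with siRNA1, 363, 368 and 365 CPM with siRNA2 and 384, 414 and 435 CPM in the control libraries (log2 fold change 1.53, SE 0.0637, adjusted p = 2.67e-16), and it holds AATTCCA. COX6B1 was low with siRNA2 and near control with siRNA1, and COX8A was low with siRNA1 and nearer control with siRNA2. ATP5PB, an ATP synthase subunit (149 ± 2.03 CPM with siRNA1 and 79.6 ± 2.05 CPM with siRNA2; -0.91), and COX5B (147 ± 9.88 CPM with siRNA1 and 68.2 ± 2.73 CPM with siRNA2; -1.11) were lower. Of mitochondrial ribosomal proteins 58 of 74 were lower and 6 higher (median -0.45), and the higher count was 3 without siRNA2 library 1 or 3. MRPS14 had 19.3, 20.9 and 19.5 CPM with siRNA1, 7.42, 6.80 and 5.18 CPM with siRNA2 and 17.7, 19.1 and 18.1 CPM in the control libraries (log2 fold change -1.61, SE 0.118, adjusted p = 1.41e-11). MRPS14 was lower and holds AATTCCA. All 13 tested genes encoded by mitochondrial DNA were lower, in a narrow range from -0.44 for MT-ND6 to -0.18 for MT-ND3. MT-ND4 had 7139, 7075 and 6445 CPM with siRNA1, 5534, 5191 and 5234 CPM with siRNA2 and 5669, 5549 and 6003 CPM in the control libraries (log2 fold change -0.37, SE 0.0510, adjusted p = 7.48e-07). Beside this, all mitochondrial transcripts took 6.03% ± 0.355 of counts with siRNA1, 4.90% ± 0.0633 with siRNA2 and 5.00% ± 0.0985 in the controls (SD, n = 3), and mitochondrial ribosomal RNA 1.10%, 0.893% and 0.622%. The part of this share in the results for these 13 genes was not tested.

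Of spliceosome genes 4 of 39 tested members were higher and 23 lower with siRNA2, with a median log2 fold change of -0.25. SF3A3, a subunit of the U2 particle, had 174, 174 and 172 CPM with siRNA1, 55.6, 56.5 and 52.5 CPM with siRNA2 and 211, 207 and 215 CPM in the control libraries (log2 fold change -1.66, SE 0.0591, adjusted p = 1.37e-17), and the Sm core protein genes SNRPB (414 ± 40.5 CPM with siRNA1 and 198 ± 3.47 CPM with siRNA2; -1.07) and SNRPD1 (-0.76) were lower, whereas the U2 subunit SF3B1 (355 ± 13.4 CPM with siRNA1 and 449 ± 12.3 CPM with siRNA2; 0.34) and the helicase DHX15 (0.38) were higher. Of the RNA interference machinery, through which the siRNAs act, 8 of 20 genes were higher and 3 lower (median -0.02). TNRC6A (77.5 ± 7.74 CPM with siRNA1 and 133 ± 6.70 CPM with siRNA2; 0.78) and TNRC6B (22.9 ± 2.82 CPM with siRNA1 and 44.1 ± 2.54 CPM with siRNA2; 0.95), scaffolds of silencing, and the helicase DDX6 (33.1 ± 1.87 CPM with siRNA1 and 74.7 ± 5.13 CPM with siRNA2; 1.18) were higher. XPO5, the exporter of microRNA precursors (-0.59), and RAN, the GTPase it needs (1025 ± 27.8 CPM with siRNA1 and 544 ± 11.2 CPM with siRNA2; -0.91), were lower. With limma on log2(FPKM+1) or log2(FPKM+0.1) 5 were higher and 5 lower.

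Stress and survival genes did not share a direction. In the BCL2 family, which governs apoptosis at mitochondria, 8 of 15 genes were higher and 5 lower. The death gene BBC3 was higher (6.32 ± 0.500 CPM with siRNA1 and 18.8 ± 1.48 CPM with siRNA2; 1.57), and BAX (-0.57) and PMAIP1 (-0.60) were lower. The pore-forming death effector BAK1 had 120.4, 118 and 120.0 CPM with siRNA1, 30.8, 29.6 and 31.3 CPM with siRNA2 and 67.3, 69.8 and 70.7 CPM in the control libraries (log2 fold change -1.97, SE 0.0660, adjusted p = 4.44e-18), while the survival gene BCL2 was higher (2.38 ± 0.532 CPM with siRNA1 and 7.43 ± 1.43 CPM with siRNA2; 1.65). Integrated stress response genes had 12 of 29 higher and 6 lower, with the cystine transporter SLC7A11 (50.4 ± 4.70 CPM with siRNA1 and 159 ± 6.46 CPM with siRNA2; 1.66) and DDIT4, an inhibitor of mTOR complex signalling (129.7 ± 16.5 CPM with siRNA1 and 373 ± 17.4 CPM with siRNA2; 1.52), higher and SHMT2 (-0.47) lower. Of MYC network and target genes 16 of 29 were lower and 7 higher (median -0.29), with MXD1, an antagonist of MYC (7.47 ± 0.474 CPM with siRNA1 and 29.2 ± 1.38 CPM with siRNA2; 1.96), higher and APEX1, a DNA repair endonuclease (-1.26), lower.

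Chaperones of the cytosol leaned lower, with 17 of 29 lower and 5 higher (median -0.21), including HSPH1 (330.4 ± 17.5 CPM with siRNA1 and 146 ± 3.31 CPM with siRNA2; -1.18) and HSP90AA1 (1542 ± 95.6 CPM with siRNA1 and 1024 ± 30.8 CPM with siRNA2; -0.59). Hypoxia and glycolysis genes had 17 of 36 lower and 10 higher (median -0.06), with the glycolytic regulator PFKFB3 lower (324 ± 5.98 CPM with siRNA1 and 132 ± 4.30 CPM with siRNA2; -1.29) and the mitophagy receptor BNIP3L higher (24.1 ± 1.55 CPM with siRNA1 and 121 ± 4.77 CPM with siRNA2; 2.33). NRF2 and antioxidant genes had 14 of 33 lower and 10 higher (median 0.03), with the ferritin light chain FTL at 1638 ± 64.1 CPM with siRNA1 and 3701 ± 358 CPM with siRNA2 (1.18) and HMOX1 (-0.80) lower. Proteasome genes had 9 of 34 higher and 9 lower, with PSMD12 (0.75) and PSMB4 (-1.11) at the ends. The lower count of the proteasome list was 5 without siRNA1 library 1. Replication-dependent histone genes had 10 of 17 higher and 2 lower (median 0.86), with H1-2 at 15.4 ± 0.653 CPM with siRNA1 and 41.8 ± 2.62 CPM with siRNA2 (1.44). The lower histone count was 1 when siRNA1 library 1, 2 or 3 or siRNA2 library 2 was left out. Histone genes are near-identical copies, and their counts are uncertain.

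The share of genes called higher differed with transcript length. In 5 bins of genes from the shortest to the longest exonic length, the share called higher was 17.3%, 24.9%, 28.2%, 34.2% and 37.5%, while the share called lower was 31.7%, 34.2%, 34.1%, 31.2% and 28.7%. By 3′ UTR length the share called higher was 22.7% in the shortest and 36.9% in the longest bin, and the share called lower 37.4% and 31.8%. Both shares grew with level, from 13.03% higher and 17.6% lower in the lowest bin to 37.2% and 39.1% in the highest. Of 12674 protein-coding genes 31.5% were higher and 34.2% lower, against 14.9% and 23.8% of 579 long intergenic noncoding RNA genes and 10.6% and 29.1% of 368 processed pseudogenes. Among chromosomes the share called higher ran from 21.1% on chromosome 16 to 33.2% on chromosome 12, leaving out the 16 mitochondrial genes, of which 15 were lower.

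Some genes above lie over another gene on the same or the other strand. Whether counting used strand, and what it did with reads that fall on both genes, is unstated in the labels, so the counts of such genes are uncertain. Of the genes given by library, MELTF-AS1, FADS1, CDH3, IL6, ADAM19, ADAMTS9, ZEB2, AXL, HMGCS1, SEC61A1, MAD2L1, RPA1, NHP2, NOP14, RPL18, RPL10, MRPS14 and BAK1 overlap exons of a gene on the opposite strand. FADS1, TGFB2, TXNDC5, DKC1, RPL18, RPL10, COX8A and MT-ND4 overlap one on the same strand. Of all 260 genes selected by the naming rule, 89 and 37 do so.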

How the data were processed

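RNA-seq of 9 libraries of MDA-MB-231 cells was used, 3 each with control siRNA, MILIP siRNA1 and MILIP siRNA2, as the treatment labels give them. The authors deposited raw counts and FPKM of every gene in each library. Per the submitters' processing notes Trimmomatic 0.30, HISAT2 2.0.1, HTSeq 0.6.1 and DESeq were used, with no role given. The authors' FPKM equal the count divided by exonic size and library total (100% of values within 0.0051). The notes name hg19, but 99.98% of the 58394 identifiers also in GENCODE v29 overlap their own gene there on GRCh38, so coordinates are GRCh38. Symbols of 60401 of the 60612 identifiers came from a human gene name table.

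The filter filterByExpr (minimum count 10, minimum total 15) kept 99.87% of counts. These were scaled by TMM and tested with edgeR 4.0.16 (R 4.3.3) by the quasi-likelihood test in 1 fit of 3 groups, contrast siRNA2 minus siRNA1. edgeR put the common biological coefficient of variation at 0.0641. SE stands for the absolute log2 fold change divided by the square root of the F statistic. It is thus worked back from the test and is not an output of the fit. The script was tested on simulated data. No 2 libraries of a group agreed within counting noise (chi-square of 2.16 to 8.42 per gene). Alternatives used DESeq2 1.42.0, limma 3.58.1, other scaling, filters and sample sets. The 3′ UTR words came from the longest annotated 3′ UTR of each gene in GENCODE v29, with Python 3.11.15, numpy 2.4.6 and pandas 2.3.3. Figures were drawn with matplotlib 3.10.9. MicroRNA seeds came from RefSeq.

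Named genes are MILIP, MAFG and MELTF-AS1; the 12 largest called fold changes in each direction among genes whose siRNA libraries do not overlap, with at least 5 CPM in the higher group; the next 6 with at least 50 CPM; up to 3 members of each list per direction by the same rule; and genes of counts of 5 or fewer. Clone and accession names were left out. The comparison, the lists and the words were chosen with earlier results of these data known. Some named genes and 1 list are not reported here. Raw reads were not used here.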

Additional observations from a re-analysis of the deposited data

How the results depend on the processing

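The call counts kept their size under DESeq2, median-of-ratios scaling, no low-count filter, limma on FPKM and the fit of the siRNA libraries alone. Against a minimum fold change of 1.5 edgeR called 2936 genes, 1511 higher and 1425 lower. The count of genes at least 2-fold higher was 452 with limma on log2(FPKM+1), and that of genes at least 2-fold lower 362 there and 582 with a mean FPKM of at least 1, which tests fewer genes; a pseudocount of 1 shrinks the fold change of genes of low FPKM. With each library left out in turn, 8636 to 9634 genes were called, 4096 to 4700 higher and 4405 to 4934 lower, and 1165 to 1263 and 1111 to 1186 at least 2-fold. MILIP between the siRNAs ranged from -1.48 to -0.51 over these fits, and it was not called with limma on log2(FPKM+1) (-0.31), on log2(FPKM+0.1) (-0.81), in the siRNA libraries alone (-0.97), or against the 1.5-fold minimum (-0.99, adjusted p = 0.215); the cause was not tested. MILIP against control ranged from -3.22 to -2.41 with siRNA1 and from -4.22 to -3.47 with siRNA2. Of 259 named genes other than MILIP none changed direction in any setting, and 80 lost their call against the 1.5-fold minimum. Nearly all of them were picked from the main fit as called genes with siRNA libraries apart. A change of direction was thus unlikely from the start, and the count does not speak for other genes. Which direction held more calls changed, or both tied, in some settings for the lists of homologous recombination, proteasome, early response, NRF2, MHC class I, RNA interference, Notch and mitochondrially encoded genes and endothelial markers. The word differences, 0.27 and -0.27, were 0.15 and -0.15 with limma on log2(FPKM+1); word alternatives were added after seeing the data. With the replicate number as a block 4385 genes were higher and 4909 lower, 9294 in all. Deviations of siRNA1 and siRNA2 libraries of the same number had correlations of 0.029, 0.039 and -0.028. Those of libraries of different number ran from -0.069 to 0.046. No pairing by number was thus seen between these 2 groups. The control libraries were not compared in this way, so a pairing of all samples cannot be judged. Low counts limit MILIP and other genes near 1 CPM.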

Other observations

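The Gene Ontology annotation deposited with the table gave 647 biological process terms of 20 to 300 tested genes, which were ranked by median log2 fold change of siRNA2 against siRNA1 as a description, with no test. Beside the cholesterol terms, the 15 terms with the highest medians included negative regulation of BMP signaling (0.64; 17 of 25 genes higher and 4 lower), cellular response to lipopolysaccharide (0.62; 28 of 42 higher and 8 lower), regulation of proteolysis (0.59; 14 of 21 higher) and glycosaminoglycan biosynthesis (0.53; 13 of 21 higher). Wound healing (0.46; 23 of 38 higher and 10 lower) and neutrophil chemotaxis (0.48; 13 of 22 higher) followed. Among the 15 with the lowest medians were spliceosomal snRNP assembly (-0.47; 21 of 28 lower and 2 higher), spindle organization (-0.47; 12 of 20 lower) and ncRNA metabolism (-0.46; 18 of 25 lower). Ephrin receptor signaling had a median of -0.37 although 9 of its 21 genes were higher and 8 lower. Genes occur in several terms, so the terms are not independent.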
